A study of Mus musculus with 10 samples.

Results

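The genes described here encode chaperones and ATP-dependent proteases that keep mitochondrial proteins folded and remove damaged ones. They were followed in cochleae, the hearing organs of the inner ear, of male mice aged 9 months. The 10 genes Hspd1, Hspe1, Hspa9, Trap1, Clpp, Clpx, Lonp1, Yme1l1, Afg3l2 and Spg7 were taken by platform gene symbol, current or older, among 18193 genes named on the arrays. They were measured by 24 of 45037 probe sets, and no probe set was found under an older name. The 5 wild-type samples came from Polg+/+ mice and the 5 D257A samples from PolgD257A/D257A mice. D257A denotes an amino acid change in Polg, the polymerase that copies mitochondrial DNA, that removes its proofreading, and mutations build up in the mitochondrial genome. The change is present in all cells of the animal, and the RNA came from cochlea as a tissue. Nothing in the labels ties each numbered sample (1 to 5 in a group) to its own animal, and the series' text speaks of no replicates having been made, so p-values measure only the spread between these samples, which may be technical.

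Most mitochondrial proteins are made in the cytosol, imported unfolded and folded in the matrix by the Hsp70 chaperone (Hspa9) and by the chaperonin of Hsp60 and Hsp10 (Hspd1 and Hspe1). Proteins that misfold are degraded by the matrix proteases Lonp1 and Clpp with its unfoldase Clpx, and in the inner membrane by proteases that face the intermembrane space (Yme1l1) or the matrix (Afg3l2 and Spg7). Cells under mitochondrial protein stress can raise the transcription of several of these genes, a response called the mitochondrial unfolded protein response. The comparison asked whether their transcripts differ in cochleae in which mitochondrial DNA mutations accumulate.

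None of the 10 genes, each represented by its brightest probe set, passed the test in D257A against wild-type cochleae. Each had a limma adjusted p between 0.297 (Hspd1) and 0.999 (Hspe1), and 0 of 10 had an unadjusted p under 0.05. Among all 11871 genes tested, 2.32% were called at an adjusted p of 0.05 and 16.7% had an unadjusted p under 0.05. The log2 fold changes ran from -0.34 (Hspd1) to 0.32 (Trap1), with 4 positive, 6 negative and a median of -0.0028, against -0.022 over all genes tested. The median size of the change, without its sign, was 0.105 for the 10 genes and 0.212 over all genes tested. All 10 of the 95% confidence intervals lay within 1 log2 unit of 0, that is within a 2-fold change in either direction, which held for 82.1% of all genes tested. It held for 18 of the 19 tested probe sets of the 10 genes. These comparisons with all genes were not matched for signal level. When the probe sets of each gene were averaged, 0 of the 10 genes and 2.2% of 9096 genes were called. Among the brightest probe sets, the widest interval reached -0.84 and 0.83 for Clpp, and the highest upper bound was that of Trap1 (0.88).

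**Figure D1:**
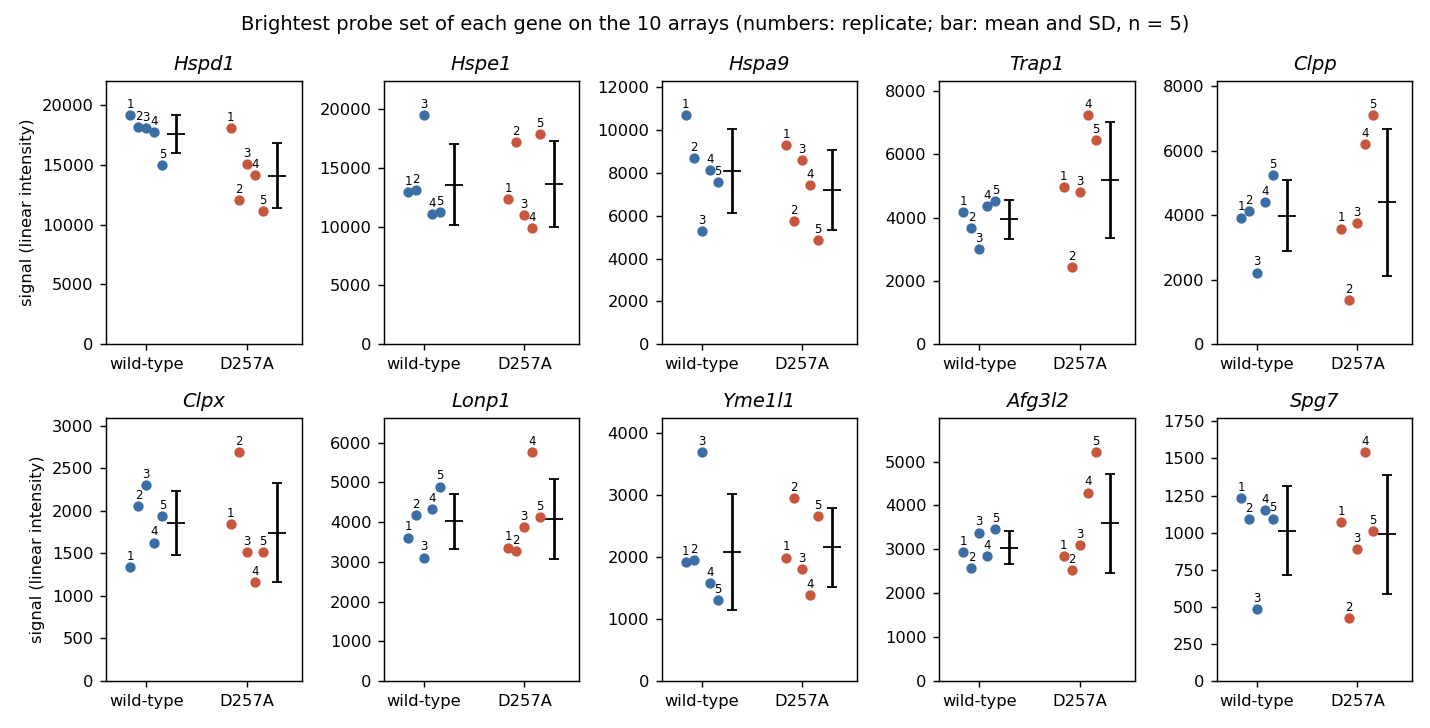
Linear signal (y axis, from 0) of the brightest probe set of each of the 10 genes on the 5 wild-type (blue) and 5 D257A (red) arrays. Numbers give the replicate, and bars show the mean and SD. The ranges of both groups overlap for each of the 10 genes.

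Of the 24 probe sets, 19 were bright enough to be tested, and every gene had at least 1 of them. Of these 19, 0 were called in limma and 1, the second of Yme1l1, had an unadjusted p under 0.05; among all 22518 probe sets tested, 2.28% were called and 16.9% had an unadjusted p under 0.05. The wild-type and D257A ranges overlapped for all 19, while 5.16% of all probe sets tested had ranges that did not overlap. The other 5 (2 of Hspa9 and 1 each of Yme1l1, Afg3l2 and Spg7) lay below the filter, had log2 fold changes of 0.15 to 0.79 and were not called in the fit with no filter, where the median of all probe sets was 0.09.

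**Figure D2:**
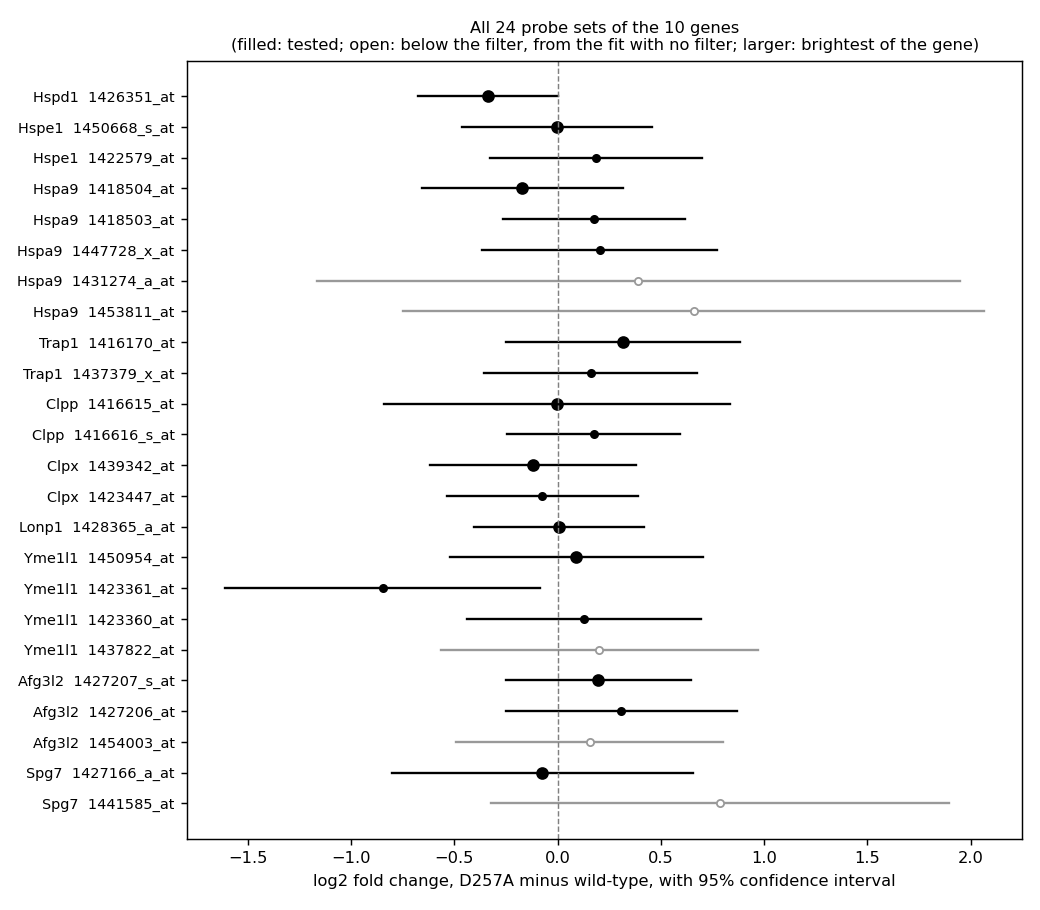
Log2 fold change (x axis, D257A minus wild-type, with 95% confidence interval) of all 24 probe sets, in rows. Filled points were tested, open points lay below the filter. The interval of Yme1l1 probe set 1423361_at was the only one among the 19 tested that did not include 0.

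Signals of the cochlear markers Coch and Otos, genes of the spiral ligament, were 74289.9 ± 6934 and 49879 ± 6024 in wild-type and 68705 ± 8933 and 43041 ± 12988 in D257A (SD, n = 5 each). Of 12 cochlear markers 8 were tested and 0 called (2 with an unadjusted p under 0.05). Of these 8, 7 were negative and 1 positive (median log2 fold change -0.19). The hair cell genes Slc26a5 and Ocm and the tectorial membrane gene Tecta had no tested probe set under the names used. Of 16 skeletal muscle markers tested 7 were called lower and 0 higher, against 1.66% of all genes called lower and 0.657% called higher. An unadjusted limma p under 0.05 was found for 16.7% of all genes and for 15 of these 16 markers. The log2 fold change of all 16 was negative (median -2.88). Their summed signal was 240754 to 694077 on the wild-type arrays and 26717 to 336136 on the D257A arrays, and none was listed at 0 (the lowest single signal was 18). Of 8 markers of airway and middle ear epithelium and glands, 6 were called lower and all 8 were negative. Of 10 neutrophil and marrow markers 2 were called higher and 1 lower. Of these 10, 9 were positive and 1 negative (median log2 fold change 0.96), and all 10 had an unadjusted p under 0.05. Among myelin, adipocyte and neuron markers 1 of 5 was called higher, 2 of 4 lower and 0 of 7. In the same order, 3, 3 and 1 had an unadjusted p under 0.05. All 5 myelin markers were positive, 1 adipocyte marker was positive and 3 negative, and 5 neuron markers were positive and 2 negative. The part of these tissues and cell types in the values of the chaperones and proteases was not tested. In bulk tissue, fewer cells of a type and less RNA per cell cannot be told apart. Wild-type replicate 3 and D257A replicate 2 correlated least with the other arrays of their groups (mean r 0.914 and 0.89).

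Hspd1 and Hspe1 stand next to each other on chromosome 1 and are transcribed in opposite directions, and this shared promoter region is shown because both genes form a single chaperonin. In RefSeq (GRCm38.p6) 1 of the 2 listed Hspd1 start sites lies 216 bases from that of Hspe1, with the genes pointing away from each other, and their windows share 285 of 300 bases. The other Hspd1 start lies 95 bases inside Hspe1. The window from 250 bases before to 50 after the Hspe1 start (chr1:55087898-55088197, plus strand, 5′ to 3′) reads as follows, with matches to the heat shock element in capitals.
Hspe1: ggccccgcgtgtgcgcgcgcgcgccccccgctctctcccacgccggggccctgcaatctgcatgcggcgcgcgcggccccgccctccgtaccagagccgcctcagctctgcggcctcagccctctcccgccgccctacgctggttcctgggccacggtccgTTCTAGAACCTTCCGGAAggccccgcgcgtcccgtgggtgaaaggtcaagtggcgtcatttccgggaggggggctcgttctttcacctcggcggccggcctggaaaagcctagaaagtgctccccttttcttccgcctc
The capitals cover bases 162 to 179 of the window, 89 to 72 bases before the start site, and hold 2 overlapping matches, 1 on each strand, to the element: TTC, GAA and TTC, each parted from the next by 2 bases of any kind. That motif, searched on both strands, is found in 0.603% of 32851 windows of this length. Trap1 and Lonp1 are shown because theirs were the only windows, among those read for 8 of the 10 genes (all but Hspa9 and Afg3l2), that held TGACGTNA, the cAMP response element bound by CREB and ATF proteins. It is found in 2.93% of all windows and in capitals below, in Trap1 (chr16:4077761-4078060, minus strand) at 47 to 40 bases before the start, where it is its own reverse complement. In Lonp1 (chr17:56626854-56627153, minus strand) it runs from 7 bases before the start to the start itself.
Trap1: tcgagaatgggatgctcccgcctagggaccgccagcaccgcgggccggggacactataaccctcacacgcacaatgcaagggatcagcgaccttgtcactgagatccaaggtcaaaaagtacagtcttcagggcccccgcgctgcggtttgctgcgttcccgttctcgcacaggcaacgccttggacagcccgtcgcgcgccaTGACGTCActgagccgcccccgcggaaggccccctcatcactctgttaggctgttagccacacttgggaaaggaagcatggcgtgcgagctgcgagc
Lonp1: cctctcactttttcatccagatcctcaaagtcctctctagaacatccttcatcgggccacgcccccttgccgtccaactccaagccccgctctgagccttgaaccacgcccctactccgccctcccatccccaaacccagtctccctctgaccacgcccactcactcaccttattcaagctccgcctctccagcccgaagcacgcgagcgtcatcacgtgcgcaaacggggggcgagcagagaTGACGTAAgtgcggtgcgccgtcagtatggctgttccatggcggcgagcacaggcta
A further motif, TGATGNAA, the element bound by C/EBP and ATF proteins, is in 3.97% of all windows and was not matched in these. A match describes letters in the window and is no evidence of binding.

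Hspd1 encodes Hsp60, the barrel of the chaperonin in which imported proteins fold. Its single probe set, 1426351_at, measured 19119.5, 18124, 18044, 17732 and 14932 in wild-type replicates 1 to 5. In D257A replicates 1 to 5 it measured 18069, 12065, 15015, 14118 and 11119. The 3 lowest of the 10 values were D257A replicates 5, 2 and 4, while D257A replicate 1 lay among the 4 higher wild-type values. The means were 17590.4 ± 1574 and 14077 ± 2721 (SD, n = 5 each), a difference that did not pass the test (log2 fold change -0.34, SE 0.16, 95% interval -0.68 to 0.00, limma adjusted p = 0.297). On this scale the interval runs from a fall of 37.4% to no fall, and with 1 array left out the log2 fold change stayed between -0.43 and -0.26.

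Hspe1 encodes Hsp10, the lid of that barrel. The brighter of its 2 probe sets, 1450668_s_at, measured 12975, 13118, 19476, 11094 and 11228 in wild-type replicates 1 to 5. The D257A values were 12334, 17176, 10983, 9862 and 17905.5 in the same order. Wild-type replicate 3 and D257A replicates 5 and 2 were the 3 high arrays, and the other 7 lay between 9862 and 13118. The mean signals were 13578 ± 3429.8 and 13652 ± 3665 (SD, n = 5 each). The log2 fold change is fitted to log2 values, not to these means, and was -0.00142 (95% interval -0.46 to 0.46, adjusted p = 0.999). The second probe set, 1422579_at, was again highest in wild-type replicate 3 (6056, against 2476 to 2738 on the other wild-type arrays) and D257A replicate 2 (4198). Its log2 fold change of 0.18 (adjusted p = 0.747) was 0.43 without wild-type replicate 3 (adjusted p = 0.147). RefSeq lists 7 entries named as pseudogenes or related sequences of Hspe1 and 5 of Hspd1. The probes were not compared with them, so any signal from such copies cannot be told apart from that of the genes.

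Across the 10 arrays the 2 chaperonin transcripts showed no clear common variation: r was -0.27 (permutation p = 0.432, adjusted over 3 relations 0.432) and rho 0.03 (permutation p = 0.948, adjusted 0.948). In D257A replicates 2 and 5, Hspd1 was at its lowest of all arrays while Hspe1 was 0.37 and 0.43 above its mean on the log2 scale. Leaving out these 2 arrays, the farthest from the Hspd1 median, turned r to 0.61 (exact permutation p = 0.0325, adjusted 0.0975, n = 8). The sign of r therefore changed with those arrays, and neither r had an adjusted permutation p under 0.05.

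**Figure D3:**
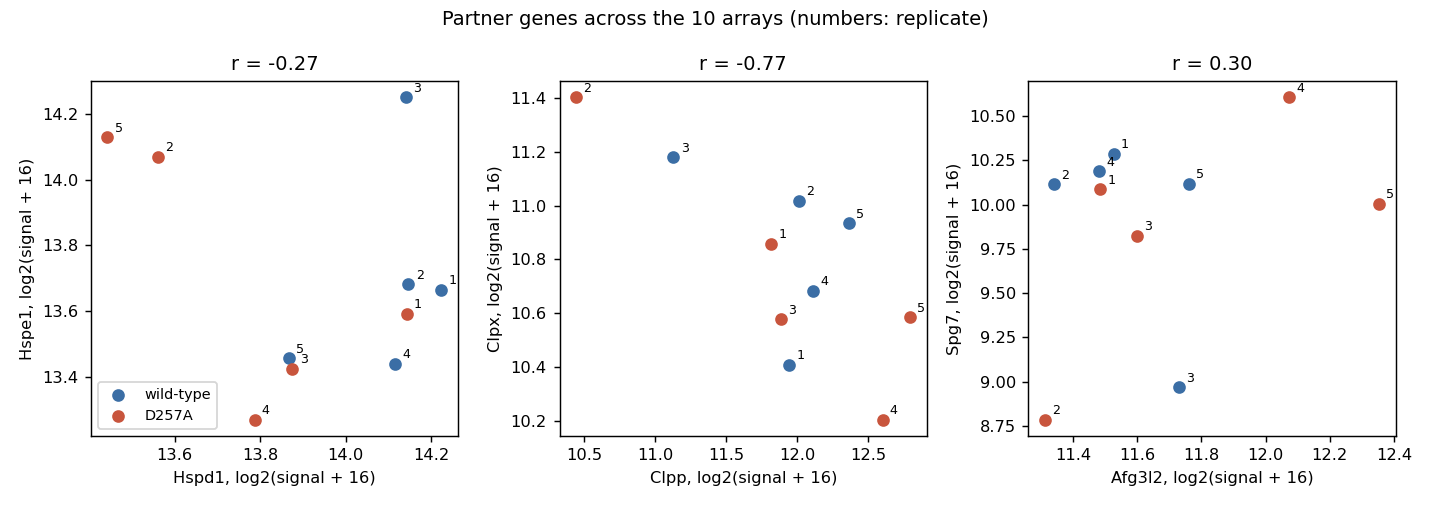
Log2(signal + 16) of the brightest probe sets of 3 partner pairs, 1 point per array (blue wild-type, red D257A, numbers give the replicate). In the left panel D257A replicates 2 and 5 stand apart at low Hspd1 and high Hspe1; in the middle panel wild-type replicate 3 and D257A replicate 2 stand at low Clpp and high Clpx.

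Hspa9 encodes mortalin, the matrix Hsp70 that pulls proteins through the import channel and hands them on for folding. Its brightest probe set, 1418504_at, measured 10686, 8698, 5267, 8128 and 7569 in wild-type replicates 1 to 5. The D257A signals, by replicate number, were 9289.8, 5743.5, 8614, 7435 and 4866. The 3 lowest arrays were wild-type replicate 3 and D257A replicates 5 and 2, and both groups covered much the same range. The means of 8069 ± 1959 and 7189 ± 1870.3 (SD, n = 5 each) lay closer together than either SD (log2 fold change -0.17, SE 0.23, 95% interval -0.66 to 0.32, adjusted p = 0.754). The other 2 tested probe sets had the opposite sign, 0.18 and 0.20 (adjusted p = 0.715 and 0.75), and both were highest of all arrays in D257A replicate 2 (9006 and 4397). So 1 array was low on one probe set of this gene and high on the others. RefSeq lists 1 entry named as a pseudogene or related sequence of Hspa9.

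Trap1 encodes the mitochondrial member of the Hsp90 family. Its brighter probe set, 1416170_at, measured 4184, 3659, 2999.7, 4358 and 4519 in wild-type replicates 1 to 5. In the D257A replicates it measured 4960.0, 2447, 4808, 7235 and 6441. Of the D257A arrays 4 lay above every wild-type value and replicate 2 below all of them. Mean signals were 3944 ± 619 and 5178 ± 1835 (SD, n = 5 each; log2 fold change 0.32, SE 0.26, 95% interval -0.25 to 0.88, adjusted p = 0.581). Without D257A replicate 2 the log2 fold change was 0.56 (adjusted p = 0.16), and without that array and wild-type replicate 3 it was 0.47 (adjusted p = 0.184), still short of a call. On the second probe set, 1437379_x_at, these arrays stood at the other end: D257A replicate 2 (5380) and wild-type replicate 3 (5217) were the 2 highest of 10 (log2 fold change 0.16, adjusted p = 0.786).

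Among the matrix proteases, Clpp encodes the proteolytic core of the ClpXP complex, a serine peptidase. Its brighter probe set, 1416615_at, measured 3923, 4116, 2221, 4410.0 and 5248 in wild-type replicates 1 to 5. The D257A replicates measured 3585, 1376, 3760.4, 6198.5 and 7093. D257A replicates 5 and 4 were the highest of all arrays and replicate 2 the lowest, so that the D257A range enclosed the wild-type range. The mean signals were 3984 ± 1108 and 4403 ± 2275 (SD, n = 5 each), higher in D257A, while the log2 fold change, a difference of mean log2 values that gives less weight to high arrays, was -0.00416 (95% interval -0.84 to 0.83, adjusted p = 0.999). Without D257A replicate 2 it was 0.36 (adjusted p = 0.549) and without D257A replicate 5 it was -0.23 (adjusted p = 0.848). The second probe set, 1416616_s_at, was likewise highest in D257A replicates 5 and 4 (4145 and 3703, against 2256 to 2857 in wild-type), but D257A replicate 2 lay within the wild-type range (2712); its log2 fold change was 0.17 (adjusted p = 0.699).

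Clpx is the AAA+ unfoldase that feeds Clpp. On its brighter probe set, 1439342_at, it measured 1343, 2057, 2305.5, 1627.5 and 1941 in wild-type replicates 1 to 5. In D257A it measured 1841, 2692, 1511, 1163 and 1519. D257A replicate 2 and wild-type replicate 3, both low for Clpp, were the highest here, and D257A replicate 4, high for Clpp, was the lowest. The groups overlapped, and the difference did not pass the test (log2 fold change -0.12, SE 0.23, 95% interval -0.62 to 0.38, adjusted p = 0.842). The second probe set gave -0.07 (adjusted p = 0.897). D257A replicate 2 was the highest array on the first of these (2692) and the lowest on the second (1076). It was also the lowest on the brighter Clpp probe set. The relation of Clpp with Clpx was computed on the brighter probe set of each gene only. These 2 probe sets varied in opposite directions over the 10 arrays, with r = -0.77 (permutation p = 0.0104, adjusted over 3 relations 0.0313) but rho = -0.56 (permutation p = 0.0977, adjusted 0.293). Centred on their group means, the values gave r = -0.78. Without D257A replicate 2 and wild-type replicate 3, the arrays farthest from the Clpp median, r was -0.35 (exact permutation p = 0.394, adjusted 0.591, n = 8), so the relation rests on these 2 arrays.

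Lonp1 encodes the Lon protease, which degrades oxidised matrix proteins and also binds mitochondrial DNA. Its single probe set, 1428365_a_at, measured 3609, 4169, 3105.5, 4339 and 4899 in wild-type replicates 1 to 5. The D257A replicates gave 3358.5, 3270.1, 3877, 5767 and 4132. Wild-type replicate 3 and D257A replicate 2 were the lowest arrays and D257A replicate 4 the highest, and the group means differed by less than the spread between replicates (4024 ± 689 and 4081 ± 1008, SD, n = 5 each). The log2 fold change of 0.00623 had a 95% interval of -0.41 to 0.42 (adjusted p = 0.994), which reaches from a fall of 24.6% to a rise of 33.8%.

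The inner membrane proteases are AAA+ metallopeptidases. Yme1l1, the protease whose active site faces the intermembrane space and which cleaves the fusion protein Opa1, was measured by 4 probe sets, of which 3 were tested and disagreed. The brightest, 1450954_at, measured 1916, 1950.3, 3695, 1575 and 1301 in wild-type replicates 1 to 5 and 1993, 2951, 1802, 1379.7 and 2657 in the D257A replicates. The highest arrays were wild-type replicate 3 and D257A replicate 2, and the difference did not pass (log2 fold change 0.09, SE 0.28, 95% interval -0.52 to 0.70, adjusted p = 0.907). The second, 1423361_at, measured 1346, 1509, 734, 967 and 970.1 in wild-type replicates 1 to 5. It measured 1059, 537, 1049.8, 304.5 and 379.7 in the D257A replicates. D257A replicates 4, 5 and 2 were the 3 lowest arrays and D257A replicates 1 and 3 lay among the wild-type values. Of the 19 tested probe sets this one had the lowest log2 fold change (-0.85, SE 0.35, 95% interval -1.61 to -0.08, unadjusted p = 0.0323), and it did not pass over all probe sets (adjusted p = 0.244; 0.146 to 0.471 with 1 array left out). The third gave 0.13 (adjusted p = 0.851).

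Afg3l2 and Spg7, which encodes paraplegin, are subunits of the protease that faces the matrix and matures ribosomal and respiratory proteins. Afg3l2 measured 2936, 2578, 3382.5, 2845 and 3453 in wild-type replicates 1 to 5 on its brightest probe set, 1427207_s_at. In the D257A replicates the signals were 2849.8, 2529, 3088, 4290.3 and 5216.5. D257A replicates 5 and 4 were the highest of all arrays and replicate 2 the lowest (log2 fold change 0.20, SE 0.21, 95% interval -0.25 to 0.64, adjusted p = 0.681). The second probe set, 1427206_at, stayed between 871 and 986.5 in wild-type and ran from 601 to 1875 in D257A (log2 fold change 0.31, adjusted p = 0.588). Spg7 (probe set 1427166_a_at) measured 1234, 1093, 485, 1152 and 1095 in wild-type replicates 1 to 5. It measured 1071.5, 425, 891, 1543 and 1012 in D257A. Here wild-type replicate 3 and D257A replicate 2 were the 2 lowest arrays and the others measured 890.6 to 1543 (log2 fold change -0.07, SE 0.34, 95% interval -0.80 to 0.66, adjusted p = 0.939). Without wild-type replicate 3 the log2 fold change was -0.32 (adjusted p = 0.589), and leaving out D257A replicate 2 turned it to 0.20 (adjusted p = 0.769). Over the 10 arrays Afg3l2 and Spg7 gave r = 0.30 (permutation p = 0.411, adjusted 0.432) and rho = 0.21 (permutation p = 0.559, adjusted 0.839), and r = 0.05 without D257A replicates 4 and 5 (exact permutation p = 0.885, adjusted 0.885, n = 8).

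Single arrays set many of the extreme values. Wild-type replicate 3 and D257A replicate 2 were together the 2 lowest of the 10 arrays on 5 of the 19 tested probe sets (1 each of Trap1, Clpp, Lonp1, Afg3l2 and Spg7) and together the 2 highest on 5 others (1 each of Hspe1, Hspa9, Trap1, Clpx and Yme1l1). Over all probe sets tested these shares were 10.6% and 10.3%. D257A replicates 4 and 5 were together the 2 highest on 4 of 19 (Trap1, both of Clpp and Afg3l2), against 8.26% of all probe sets. The summed signal of the skeletal muscle markers was 26717 in D257A replicate 4 and 336136 in D257A replicate 5, the lowest and the highest of the D257A arrays. It was 240754 in wild-type replicate 3, the lowest of that group, and 164640 in D257A replicate 2.

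The log2 spread between replicates was wider in D257A than in wild-type for 9 of the 10 genes and for 16 of 19 tested probe sets, against 65.3% of all probe sets. Without wild-type replicate 3 and D257A replicate 2 these counts were again 9 of 10 and 16 of 19, against 68.7%. Of the 7 genes with several tested probe sets, 4 (Hspe1, Hspa9, Clpp and Yme1l1) had probe sets of both signs. Clpp, Lonp1 and Yme1l1 changed sign on their brightest probe set when arrays were rescaled, Clpp under quantile normalization (0.03) and the others when centred on the median (-0.09 and -0.01), which moved the median of all probe sets tested from -0.00054 to -0.10. Leaving out 1 array also turned the sign on the brightest probe sets of Hspe1, Clpp, Clpx, Lonp1, Yme1l1 and Spg7.

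**Figure D4:**
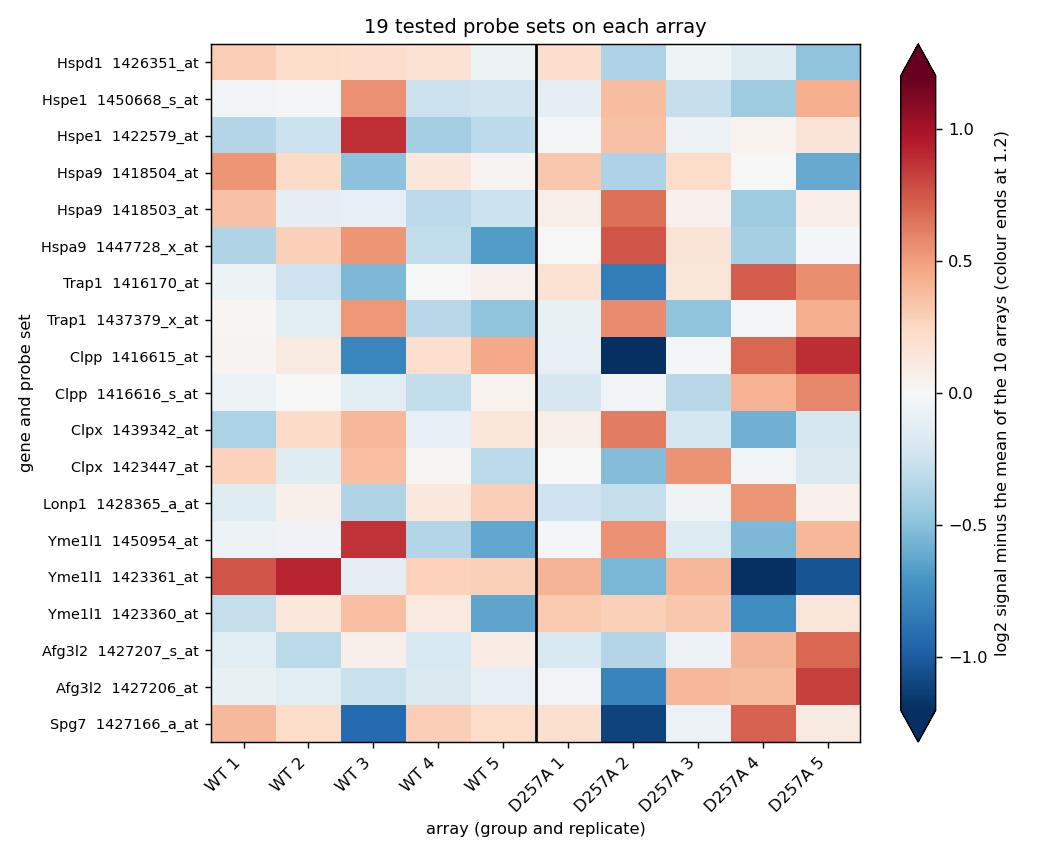
Log2 signal minus the mean of the 10 arrays (colour) for the 19 tested probe sets (rows) on each array (columns, wild-type left of the line). Wild-type replicate 3 and D257A replicate 2 are both blue for Clpp probe set 1416615_at and Spg7, and both red for Clpx probe set 1439342_at and Yme1l1 probe set 1450954_at.

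Other genes of mitochondrial protein quality control were read from 5 lists of 45 genes, 40 of them tested. None of the 40 was called in limma, against 2.32% of all genes, and 6 had an unadjusted p under 0.05, against 16.7%. Their log2 fold changes were positive in 20 and negative in 20, with a median of -0.00095, against 47.1% positive over all genes tested. Without wild-type replicate 3 and D257A replicate 2 the count called was again 0.

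Of 9 co-chaperones and folding factors, 4 were positive and 5 negative (median -0.11). The AAA+ protein Bcs1l, which assembles complex III, and Dnlz, a partner of Hspa9, had the smallest p of the list (log2 fold change -0.28 and 0.21, adjusted p = 0.521 and 0.543). Of 10 other proteases and peptidases, 8 were negative (median -0.30) and 3 had an unadjusted p under 0.05, against 16.7% of all genes tested. Pmpca, the substrate-binding subunit of the peptidase that removes import sequences, measured 4568, 4711, 5296, 4534 and 5420.1 in wild-type and 3794, 4226, 3423, 3381 and 3100.0 in D257A replicates 1 to 5. All 5 D257A values lay below all wild-type values, with an adjusted p of 0.121 (log2 fold change -0.45, SE 0.14, 95% interval -0.76 to -0.15). Of all probe sets tested, 5.16% had ranges that did not overlap, and Pmpca was named for the smallest p of its list. Mipep, which trims those sequences further, gave -0.42 (adjusted p = 0.186).

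All 4 tested protease regulators and scaffolds were positive on their brightest probe set (median 0.10). For Phb2, 1 of 4 tested probe sets had the opposite sign. Maip1, a partner of the matrix-facing protease, and Chchd4, an import oxidoreductase, had values of 0.22 and 0.15 (adjusted p = 0.56 and 0.651). Of 13 translocase genes 8 were positive and 5 negative (median 0.14), and 3 had an unadjusted p under 0.05, against 16.7% of all genes. Timm17a, a channel subunit of the inner membrane, measured 8187 ± 1486 and 5042 ± 2165 (SD, n = 5 each; log2 fold change -0.78, SE 0.27, 95% interval -1.36 to -0.21, adjusted p = 0.152). Pam16, a regulator of the import motor that contains Hspa9, measured 3981 ± 1206 and 6267 ± 2049 (log2 fold change 0.64, adjusted p = 0.221), and was highest in D257A replicate 2 (8955). Of 4 transcription factors of the unfolded protein response 2 were positive and 2 negative (median 0.02). Atf4 and Atf5, which act in that response, gave -0.54 and -0.24 (adjusted p = 0.311 and 0.649); a second tested probe set of Atf4 had the opposite sign.

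**Figure D5:**
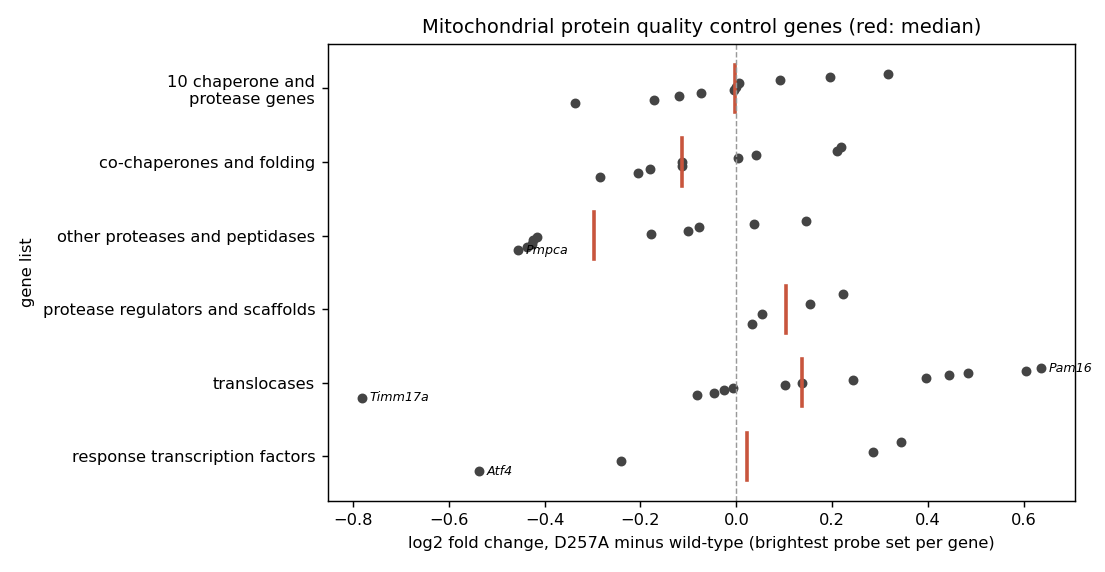
Log2 fold change (x axis, D257A minus wild-type, brightest probe set) of the 10 chaperone and protease genes and of the 40 other quality control genes in 5 lists (rows); 1 point per gene, red bar the median. Timm17a (-0.78) and Pam16 (0.64) lie farthest from 0, and none of the 50 genes was called.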

How the data were processed

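Cochlear RNA had been hybridised as biotin-labelled RNA to mouse Affymetrix arrays. The deposited values are linear array intensity, 1 per probe set and array, made by the authors with GCOS 1.3 according to the submitters' processing notes. How background was corrected and probes summarised was not given in the sources used here. Array trimmed means (2%) of 1494 to 1496 show a common scaling, which was kept. The number of arrays limits the precision; no batch could be tested. Of 45101 probe sets 64 had a value on 1 array only and were left out. Of the rest 34945 had 1 gene in the platform annotation, 932 several and 9160 none; several or none were not named.

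Signals were taken as log2(signal + 16), so fold changes understate those of dim genes. The fraction 0.5 with the higher mean over all arrays was tested (mean signal from about 577) in R 4.3.3 with limma 3.58.1 (lmFit on group alone, eBayes with intensity trend), two-sided, with Benjamini-Hochberg adjustment over all 22518 probe sets at 0.05. Every adjusted p not called a permutation p is from limma. Permutation tests (SciPy 1.17.1) were two-sided, with 100000 resamples or, for 8 arrays, exact. A gene's brightest probe set represented it. Promoter sequences are RefSeq's (GRCm38.p6). The limma fit was tested on simulated data.

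Members, lists and tests were chosen with earlier results of these data known. Named genes were the 10 members, any called gene of the 5 lists and the 2 with the smallest p in each. Alternatives were quantile normalization, centring on the median, a pseudocount of 1 or 64, the brightest 30% or all probe sets, no trend, the replicate block, each array left out, averaged probe sets and an unadjusted p. A fit without both wild-type replicate 3 and D257A replicate 2 was chosen after seeing the data.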

Additional observations from a re-analysis of the deposited data

Results flagged for a closer look

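In 6 of the 38 groups of 5 values (19 tested probe sets in 2 groups) 1 array stood far from the other 4, by a gap of more than 0.71 of the group's range (Dixon's criterion). The criterion was applied to linear signals, not to the log2 values used in the fits. Its chance rate of about 1 in 20 groups is for normally distributed values, which was not checked. Probe sets of one array are also not independent, so no excess over chance is read from the count of 6. Not all 6 flags hold on log2 values. For Yme1l1 probe set 1450954_at, wild-type replicate 3 lay at 0.87 from the mean of the 10 arrays. The next wild-type value was -0.05 and the lowest -0.62, a gap short of the criterion. Wild-type replicate 3 was the array in 4 of the 6. It was high for both Hspe1 probe sets, at 19476 on 1450668_s_at (the next value was 13118) and 6056 on 1422579_at (next 2738). It was also high for Yme1l1 on 1450954_at, at 3695 (next 1950.3), and low for Spg7 on 1427166_a_at, at 484.8 (next 1093). Wild-type replicate 1 was high for Hspa9 on 1418503_at, at 7254 (next 5322). D257A replicate 4 was low for Yme1l1 on 1423360_at, at 450.7 (next 850.6).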

How the results depend on the processing

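In every alternative run with an adjusted p, 0 of the 19 probe sets and 0 of the 40 other quality control genes were called (fewer were tested among the brightest 30%); the lowest adjusted p of the 19 was 0.146 or more throughout, and with an unadjusted p 1 probe set passed. Averaging the probe sets of each gene called 0 of the 10 genes. Of 357 alternative values of single probe sets, 356 moved from the reported value by less than the SE of that value; that of Hspe1 probe set 1422579_at went to 0.43 without wild-type replicate 3. Over all probe sets tested, 513 were called (233 higher, 280 lower), 322 among the brightest 30% and between 168 and 574 with 1 array left out. Of the wild-type arrays, leaving out replicate 2, 4 or 5 gave 168, 277 and 177; of the D257A arrays, leaving out replicate 1 or 5 gave 299 and 323. Centring on the median gave 174 higher and 479 lower. The replicate block gave 188. In a check of pairing, 1 of 5 wild-type arrays was best correlated with its own number, so the numbers were not taken as pairs. Without the 2 arrays farthest from the median of the first gene, r turned to 0.61 for Hspd1 with Hspe1 and was -0.35 for Clpp with Clpx. For Clpp these 2 arrays were wild-type replicate 3 and D257A replicate 2, so leaving those out by name is the same run. The cause was not tested.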

Other observations

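A further import gene and a peptidase of the lists are given here because of their unadjusted p, a choice made after their values were seen. Tomm20, the receptor of the outer membrane that binds import sequences, had mean signals of 16965 ± 5112 and 23314 ± 4577 in wild-type and D257A (SD, n = 5 each; log2 fold change 0.48, limma adjusted p = 0.246). Its highest values were D257A replicate 2 (30615.5) and wild-type replicate 3 (25614). Immp1l, a peptidase of the inner membrane, measured 4526 ± 551 and 3406 ± 890.0 (log2 fold change -0.44, adjusted p = 0.258). Neither passed the test.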
